A study of Danio rerio with 9 samples.

Results

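Labelled RNA of zebrafish (Danio rerio) embryos was compared between the 256-cell and the 128-cell stage, across every gene ID of a per-library expression table, with or without a gene symbol. That table lists 8969 IDs, 7028 with a symbol and 1941 with none. Of these, 7291 reached the minimum level for testing, 5762 with and 1529 without a symbol, and the other 1678 were not tested. The compared libraries are 4 of the study's 9: labelled embryos at the 128-cell and the 256-cell stage, with 2 libraries each. The labelled 512-cell libraries also entered the fit, for the scaling, the minimum level and the estimate of spread. All embryos were wild type of the AB strain. Labelled embryos had been injected as 1-cell embryos with 4-thio-UTP, in a volume of 1 nl at 50 mM. This uridine analogue is built into RNA made after the injection, and the thiol group was used to attach biotin and to capture the RNA on streptavidin beads. The remaining libraries are the labelled 512-cell stage, with 2, and RNA of unlabelled embryos taken through the same capture, with 1 per stage at the 128-cell, 256-cell and 512-cell stage. The labels do not say whether unlabelled embryos received a mock injection. They call the 2 labelled libraries of a stage technical replicates, so the p-values below measure technical spread only.

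Early zebrafish embryos divide quickly and run on RNA and protein that the mother loaded into the egg. Transcription from the embryo's own genome starts weakly during the cleavage divisions and becomes broad at the mid-blastula transition. Maternal transcription factors of the Nanog, Pou5f3 and SoxB1 families are needed for much of this activation, and many of the first transcripts are short genes that encode transcription factors and signalling proteins. New transcripts are hard to see in total RNA because maternal RNA of the same gene can hide them, which is the reason for separating labelled from unlabelled RNA.

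Values are FPKM, fragments corrected for transcript length and library size. They were scaled so that the typical nuclear gene has the same level in each library, and they are called scaled FPKM below. The scaling removes any difference in the total amount of captured RNA, so a rise means a rise against the typical gene. Numbers of reads were not used, so the depth of the libraries is unknown. The 4 compared labelled libraries differed in makeup. Mitochondrial genes, taken as those whose symbol starts with MT-, held 35.8% and 42.7% of all deposited FPKM at the 128-cell stage. At the 256-cell stage they held 22.2% and 17.7%, against 0.453% and 0.367% in the unlabelled libraries of these stages. Any mitochondrial ID without such a symbol would be counted as nuclear here. Of 39 listed marker genes of differentiated tissues, actc1a, a cardiac and muscle actin, was the only one in the table, with no signal in the 128-cell libraries and 0.258 and 0.294 scaled FPKM at the 256-cell stage. Of 15 markers of the ovarian follicle and somatic gonad, CYP11A1 and CYP17A1 were in the table, at 1.57 to 3.43 scaled FPKM in the 4 libraries, and neither passed the test.

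Nearly all calls between the stages were upward. Labelled RNA changed at 242 gene IDs (3.32% of the 7291 tested, limma adjusted p under 0.05), of which 235 rose (3.22%) and 7 fell (0.096%). The risers include zinc-finger, homeobox and Hairy-related transcription factors, Nodal, Notch and Fgf pathway genes, and a large group of IDs with no symbol. Their log2 changes ran from 0.79 to 7.28, with quartiles of 1.51, 2.58 and 3.85, and the median standard error was 0.21. On the linear scale the median rise was 5.97-fold, computed on scaled FPKM plus 1, which understates the change of genes with low levels. All 235 were higher at the 256-cell stage within both replicate numbers, and the median log2 change was 2.51 in replicate 1 and 2.50 in replicate 2. The risers were chosen by a test on these same libraries with the replicate number in the model, so this is a description. In 231 of the 235, both 256-cell libraries lay above both 128-cell libraries, an arrangement found in 1194 (16.4%) of all tested IDs. The 4 with overlap are odf3l2a, khdrbs1a and a pair of IDs without a symbol. At an unadjusted p under 0.05, 635 IDs were higher and 303 lower.

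The number of calls depends on the treatment of the replicate number. The replicate number entered the model as a block, and without it 85 IDs were called, all of them higher. Each of the 2 libraries of the 256-cell stage also carries the count: 90 IDs were called without replicate 1 and 109 without replicate 2. With each library set to the same nuclear FPKM total, the median of all genes shifted by -0.60 on the log2 scale and the split became 286 higher and 1490 lower. Changes on that scaling are to be read against this shift.

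**Figure D1:**
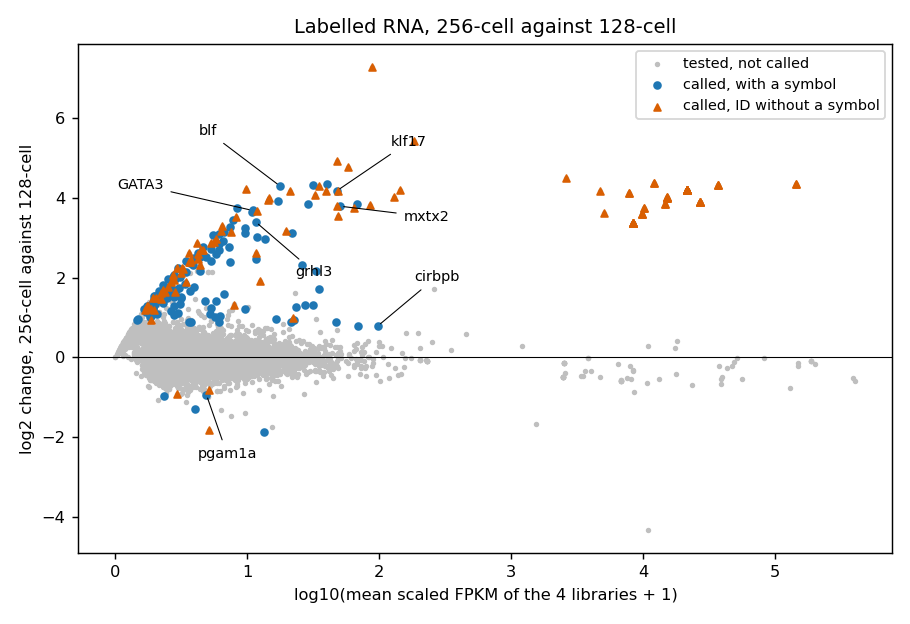
Log2 change from the 128-cell to the 256-cell stage (vertical axis) against the mean level of each tested ID in the 4 labelled libraries (horizontal axis, log10 of scaled FPKM plus 1). Blue circles are the called genes with a symbol, orange triangles are called IDs without one, and grey points are the rest of the 7291. The 235 risers form an upper arm, and 54 IDs without a symbol stand apart at the right, above 1000 scaled FPKM at the 256-cell stage.

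Most risers started from a low level. In 14 of the 235 the value was 0 in both 128-cell libraries, and in 119 it was under 1 in both. Median levels of the risers were 0.739 and 0.632 scaled FPKM in the 128-cell libraries, 11.3 and 9.45 in the 256-cell libraries, and 40.2 and 36.3 in the 512-cell libraries. Over all tested IDs the medians of these 6 libraries stayed between 2.70 and 3.04. In 230 of the 235, both 512-cell libraries were higher than the 256-cell library of the same number. The share of all tested IDs with this arrangement was not computed. The minimum level for testing also drew on the 512-cell libraries, so the count is a description. By 128-cell mean, 127 risers were under 1 scaled FPKM, 38 from 1 to 10, and 70 at 10 or more, of which 11 have a symbol. An ID with a 128-cell mean under 1 needed a later stage to pass the minimum level, and 13% of the 974 such tested IDs rose. Shares of tested IDs at different starting levels are therefore not compared. List shares set beside 3.22% below have the same limit and are descriptions. Of 228 tested IDs under 1 in all 4 libraries, 1 rose, GPD1.

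The 12 largest rises among genes with an established name were znf1089, blf, klf17, her11, irx7, mxtx2, znf1127, GATA3, drll.3, foxd5, grhl3 and GPER1. Fitted rises were 9.58-fold to 20.03-fold on scaled FPKM plus 1, which understates the change of genes with low levels and affects their order. All except GPER1, a G-protein-coupled receptor for oestrogen, encode transcription factors or zinc-finger proteins. Across the 12, the 128-cell values ran from 0.0450 to 7.65 scaled FPKM and the 256-cell values from 8.81 to 149. The highest value of any of them in an unlabelled library of either stage was 1.06, for klf17.

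The zinc-finger genes znf1089, blf (bloody fingers), klf17, znf1127 and drll.3 have Cys2His2 fingers, the most common DNA-binding module of vertebrates. For znf1089, 1.23 and 2.70 scaled FPKM at the 128-cell stage became 42.8 and 74.7 at the 256-cell stage, a log2 change of 4.32 ± 0.20 (SE, n = 2 libraries per stage, limma adjusted p = 0.000614). For blf the values were 0.852 and 0.577, then 34.1 and 31.2 (log2 change 4.30 ± 0.13, limma adjusted p = 0.000389). Both 256-cell libraries of blf lay close together and far above the 128-cell libraries. klf17, a Krüppel-like factor of the embryonic surface layer and the hatching gland, went from 5.23 and 2.58 to 119 and 60.1 (log2 change 4.18 ± 0.14, limma adjusted p = 0.000389). znf1127 went from 0.214 and 0.0450 to 11.3 and 17.9 (3.76 ± 0.27), and drll.3, a relative of the blood and heart gene draculin, from 0.579 and 0.571 to 23.6 and 15.0 (3.66 ± 0.19). In all 5 the stages were separate and the fold exceeded the difference between replicates.

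Homeobox, forkhead, GATA and Grainyhead genes make up the next group. Scaled FPKM of irx7, an Iroquois-family homeobox gene, were 3.19 and 2.31 at the 128-cell stage and 60.6 and 46.1 at the 256-cell stage (log2 change 3.85 ± 0.14, limma adjusted p = 0.000434). mxtx2, a Mix-type homeobox gene that drives formation of the yolk syncytial layer, had 7.65 and 2.57 before and 149 and 38.5 after (log2 change 3.79 ± 0.18, limma adjusted p = 0.000672). Replicate 1 was the higher library at both stages for mxtx2, and without the replicate block its limma adjusted p was 0.182. foxd5, a forkhead repressor of the early neural plate, rose from 0.141 and 0.506 to 13.4 and 13.2 (3.45 ± 0.16). GATA3, a zinc-finger factor of the early ectoderm, rose from 0.542 and 0.620 to 19.9 and 18.8 (3.69 ± 0.13). grhl3, a Grainyhead-family regulator of surface epithelium, rose from 0.568 and 1.46 to 24.1 and 16.1 (3.40 ± 0.30).

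The Hairy-related repressors her11 and her5, known from the midbrain-hindbrain boundary, rose together. her11 measured 1.31 and 0.568 scaled FPKM at the 128-cell stage and 46.4 and 16.5 at the 256-cell stage (log2 change 3.92 ± 0.22, limma adjusted p = 0.000787). her5 measured 0.558 and 1.08, then 13.8 and 18.9 (3.25 ± 0.13, limma adjusted p = 0.000434). The order of the replicates differed between the pair: replicate 1 was higher for her11 at the 256-cell stage and replicate 2 for her5. GPER1 rose from 0.371 and 0.328 to 16.0 and 8.81 (3.26 ± 0.23). Of the 12 largest rises, mxtx2 was the only one whose call was lost without the block, and none was lost without either 256-cell library.

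**Figure D2:**
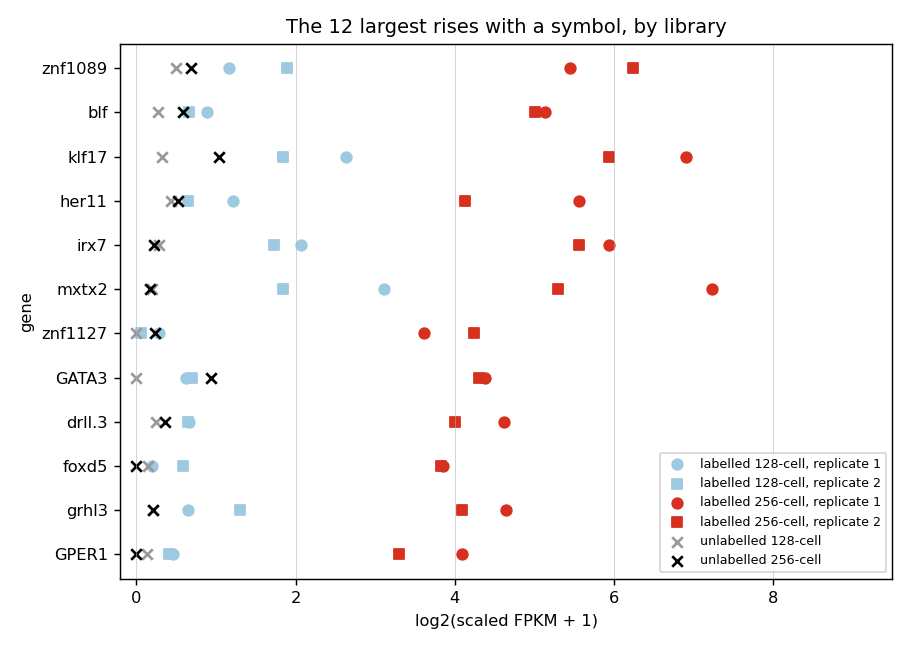
Level of the 12 largest rises among genes with an established name in each library, as log2 of scaled FPKM plus 1 (horizontal axis). Light blue marks are the labelled 128-cell libraries, red marks the labelled 256-cell libraries (circle for replicate 1, square for replicate 2), and crosses are the single unlabelled libraries. In every gene both red marks lie to the right of all others, and neither unlabelled library shown exceeds 1.06 scaled FPKM. The rule for these genes required both 256-cell libraries to lie above both 128-cell libraries.

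Genes known to be transcribed early in the zebrafish zygote formed the list with the most risers among lists of more than 2 tested genes. Of 31 tested members 21 rose (67.7%, beside 3.22% over all tested IDs) and none fell, with a median log2 change of 2.36 against 0 over all tested IDs, and all 31 changes were above 0. This and all other gene lists here were compiled with earlier results of these data known, so their counts and shares are descriptions. Besides the genes above, the early zygotic list includes the SoxB1 factors SOX3 and sox19a. SOX3 was at 0.544 and 0.319 scaled FPKM at the 128-cell stage and at 14.8 and 6.47 at the 256-cell stage (log2 change 2.93 ± 0.22, limma adjusted p = 0.00218). sox19a was at 0.0736 and 0.0619, then 5.41 and 1.85 (2.00 ± 0.31, limma adjusted p = 0.0308). nnr, at 0 in both 128-cell libraries, reached 1.78 and 1.14 (1.29 ± 0.17). The members with the weakest evidence include FOXD3, listed at 0 in both 128-cell libraries, where 256-cell replicate 1 had 1.39 and replicate 2 had 0.000334 (adjusted p = 0.543). Of the 21 risers, 13 were called without the replicate block, 16 without 256-cell replicate 1 and 18 without replicate 2.

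Of 21 tested genes on a list of Cys2His2 zinc-finger genes, 7 rose (33.3%, beside 3.22% over all tested IDs), with a median log2 change of 0.49. They are the 5 described above and the Krüppel-like factors klf2b and klf2a. This list too was chosen with earlier results of these data known, so its count does not describe zinc-finger genes as a class. Of 71 tested genes whose symbol starts with znf, a set chosen after its values were seen, 4 rose (5.63%). klf2a was at 0.345 and 0.342 scaled FPKM at the 128-cell stage and at 3.72 and 3.03 at the 256-cell stage (1.7 ± 0.15, limma adjusted p = 0.00418). The same 21 genes gave 7 risers without the block. A list of homeobox, Sox, Fox, Tbx, Gata and Her factors was also chosen with earlier results of these data known. Of its 32 tested members, 13 rose (40.6%, beside 3.22% over all tested IDs, median log2 change 0.60). They include FOXB1, a forkhead factor of the neural tube, at 0.0485 and 0 scaled FPKM before and 2.59 and 2.58 after (1.81 ± 0.20), and her7, a component of the segmentation clock, at 1.05 and 0.470 before and 4.51 and 4.61 after (1.68 ± 0.18). mych, a Myc-family gene, was higher by less, at 0.738 and 1.01 before and 2.56 and 3.60 after (1.11 ± 0.15). Without the block 7 of the 32 were called higher, and 8 without either 256-cell library.

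Signalling genes rose at ligands, antagonists, receptors and feedback regulators. Of 26 tested genes of the Nodal, Bmp, Wnt, Fgf, Notch and apelin pathways, 7 rose. This is 26.9%, beside 3.22% over all tested IDs, and the median log2 change was 0.49. The list was chosen with earlier results of these data known. Risers such as DUSP6 and LFNG had 128-cell means under 1 and needed a later stage to pass the minimum level. The share is therefore a description. The Nodal ligand ndr1 (squint), which induces mesendoderm, was at 0.578 and 0.512 scaled FPKM at the 128-cell stage and at 8.13 and 4.29 at the 256-cell stage (2.17 ± 0.20, limma adjusted p = 0.00484). Its secreted antagonist lft2 went from 0.758 and 0.203 to 14.9 and 4.58 (2.69 ± 0.26, limma adjusted p = 0.00521). The related antagonist lft1 went from 0.0608 and 0.458 to 7.82 and 2.36, a change of 2.13 ± 0.46 that did not pass (limma adjusted p = 0.0964). Both 256-cell libraries of lft1 were nonetheless above both 128-cell libraries.

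DUSP6, the phosphatase that dampens Fgf and ERK signalling, rose from 0.354 and 0.0426 to 13.9 and 6.02 scaled FPKM (3.11 ± 0.25, limma adjusted p = 0.00289). aplnrb, the apelin receptor that acts with Nodal in mesendoderm, rose from 2.81 and 1.09 to 34 and 12.8 (2.96 ± 0.16, limma adjusted p = 0.000697). LFNG, a glycosyltransferase that modifies Notch, rose from 0.0631 and 0.235 to 3.74 and 7.82 (2.50 ± 0.20). Its level was higher in replicate 2 at both stages, the opposite of DUSP6 and aplnrb. An ID annotated FZD8, a Wnt receptor, rose from 0.0353 and 0.103 to 2.07 and 1.41 (1.35 ± 0.18), and a further ID with the same symbol had 0.364 and 0.199, then 3.01 and 0.953 (1.13 ± 0.26, limma adjusted p = 0.114). Without the block ndr1 was the only call of the signalling list (limma adjusted p = 0.0405), and DUSP6, aplnrb and LFNG had 0.0786, 0.151 and 0.0542.

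Genes of the dorsal organizer, the signalling centre of the future back of the embryo, were low at the 128-cell stage. The tested members summed to 2.93 and 1.49 scaled FPKM in these libraries. The organizer genes noto and admp, given under other observations, also rose but are not on this list. Of 7 tested, 2 rose (28.6%, beside 3.22% over all tested IDs) and all 7 changes were above 0 (median log2 change 0.79). dharma, the homeobox gene that Wnt signalling switches on in the dorsal blastula, was at 0.778 and 0 scaled FPKM before and at 6.81 and 1.89 after (1.83 ± 0.23, limma adjusted p = 0.0116). dkk1b, a secreted Wnt antagonist, was at 0.867 and 0.632 before and at 6.6 and 3.66 after (1.77 ± 0.18, limma adjusted p = 0.00639). GSC, an organizer homeobox gene, had 0.357 and 0.235, then 2.84 and 1.13 (1.14 ± 0.23, limma adjusted p = 0.0794). The Bmp antagonist chrd stayed under 0.5 in all 4 libraries. Without the block dharma and dkk1b had adjusted p-values of 0.376 and 0.117, and without 256-cell replicate 1 they had 0.0694 and 0.0766, so neither call held in these fits.

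Genes of the first tissues to separate were among the risers, on lists chosen with earlier results of these data known. Of 20 listed genes of the enveloping layer, the outer epithelium of the blastula, 8 were present and tested. Of these, 4 rose (50%, beside 3.22% over all tested IDs) and the rest were not called. The risers were klf17, GATA3, grhl3 and GATA2. GATA2 had 0.308 and 0.0453 scaled FPKM before and 1.72 and 1.23 after (1.07 ± 0.16, limma adjusted p = 0.0252). GATA2 passed in 8 of 18 alternative fits, and the other 3 passed without the block. The yolk syncytial layer was represented by 2 tested genes of 12 listed, and both rose: mxtx2 and the apolipoprotein gene apoeb. apoeb was at 0.372 and 0.413 before and at 8.06 and 8.21 after (2.71 ± 0.13, limma adjusted p = 0.000672). Whole embryos were sampled, so more cells of a type and more RNA per cell cannot be told apart.

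Of 9 tested genes on a list of maternal activators of the zygotic genome, SOX3 was the only call (11.1%, beside 3.22% over all tested IDs). The median log2 change was 0.04. SOX3, which is also on the list of early zygotic genes, had 0.110 and 0 scaled FPKM in the unlabelled libraries. In the labelled 128-cell libraries it had 0.544 and 0.319, so this call is not a rise of a gene with a clear maternal signal. Scaled FPKM of nanog were 161 and 212 at the 128-cell stage and 194 and 247 at the 256-cell stage, with 174 and 172 in the unlabelled libraries (log2 change 0.24 ± 0.14, limma adjusted p = 0.525). foxh1, the Nodal-responsive forkhead factor, had 12.8 and 8.41, then 18.5 and 11.6, and 7.83 and 8.34 in unlabelled RNA (0.46 ± 0.12, adjusted p = 0.177). None of 23 oocyte and maternal mRNAs passed (median -0.13, with 1 higher at an unadjusted p under 0.05), nor did any of 14 germ plasm genes (median -0.01, with 1 lower at an unadjusted p under 0.05), in limma. For lists of this size a share of 3.22%, as over all tested IDs, comes to less than 1 call, so these counts do not set the lists apart. The germ cell RNA-binding protein gene DAZL, for example, had 17.2 and 15.5 scaled FPKM, then 10.4 and 14.8, and 12.5 and 12.1 in unlabelled RNA. How much of the maternal signal in labelled libraries is carry-over and how much is label was not tested.

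None of 18 genes of mRNA clearance passed in limma (median 0.04, with 1 lower at an unadjusted p under 0.05), and none of 14 housekeeping genes (median 0.05, with 1 higher). Of 8 genes of the p53 pathway and apoptosis none passed in limma (median 0.08, with 2 higher at an unadjusted p under 0.05). For these 3 lists too, a share of 3.22% comes to less than 1 call each. cdkn1a, a p53 target that blocks the cell cycle, had 0.212 and 0.144 scaled FPKM, then 1.45 and 0.967 (0.90 ± 0.17, adjusted p = 0.0646). Of 31 cell cycle genes 2 rose (6.45%, near the 3.22% over all tested IDs, with a median of -0.02). One was lrwd1, which binds the origin recognition complex, from 0.0205 and 0.275 to 4.84 and 9.41 (2.77 ± 0.17, limma adjusted p = 0.00114), and the other was the antiproliferative gene BTG1, from 0.705 and 0.482 to 3.90 and 2.12 (1.3 ± 0.18, limma adjusted p = 0.0170). BTG1 passed in 12 of 18 alternative fits, not without the block and not without either 256-cell library.

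Stress and immediate early genes gave 5 risers of 13 tested (38.5%, beside 3.22% over all tested IDs, with a median of 0.38). This list was also chosen with earlier results of these data known, so the share is a description. GADD45B, a growth arrest and DNA damage response gene, has a pair of IDs that both rose: one from 5.23 and 2.15 scaled FPKM to 42.0 and 33.3 (3.12 ± 0.25, limma adjusted p = 0.00298), the other from 0.311 and 0.212 to 3.71 and 1.66 (1.49 ± 0.23, limma adjusted p = 0.0267). FOS, an AP-1 subunit, rose from 0.497 and 0.381 to 8.31 and 6.20 (2.51 ± 0.28, limma adjusted p = 0.00889), while its unlabelled values were 0.287 and 1.56. GADD45G and the small heat shock gene HSPB1 were the remaining calls, at 3.57 and 1.46 and at 1.67 and 1.97 at the 256-cell stage. The first GADD45B ID is the only one of the 5 that was called without the block, and the only one called without either 256-cell library. Among 13 cytoskeleton and scaffold genes (median 0.01), marcksl1b and marcksl1a rose (15.4%, beside 3.22% over all tested IDs). They encode MARCKS-like proteins that bind actin and the membrane. marcksl1b was at 1.26 and 1.83 before and at 24.5 and 15.8 after (3.03 ± 0.23, limma adjusted p = 0.00228).

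Other risers had labelled levels above the typical gene already at the 128-cell stage. BRD2, a bromodomain protein that reads acetylated histones, was the only call of 17 general transcription genes (5.88%, beside 3.22% over all tested IDs). It had 6.58 and 8.70 scaled FPKM at the 128-cell stage, 49.4 and 35.6 at the 256-cell stage, and 10.5 and 14 in unlabelled RNA (log2 change 2.32 ± 0.21, limma adjusted p = 0.00413). Of 30 hnRNP and splicing genes 3 rose (10.0%, median 0.11), beside the same 3.22%. The RNA-binding protein gene hnrnpa0b went from 17.0 and 12.7 to 71.8 and 35.1 (1.71 ± 0.18, limma adjusted p = 0.00645), with 8.17 and 8.91 in unlabelled RNA. The splicing factor gene srsf5a went from 17.5 and 11.7 to 47.8 and 28.3 (1.3 ± 0.14, limma adjusted p = 0.00805), with 3.47 and 2.37 in unlabelled RNA. For khdrbs1a (Sam68) the values were 18.5 and 9.41, then 40.6 and 17.1, so that 1 library of each stage overlapped the other stage. None of the 3 was called without the block or without 256-cell replicate 1, and none with each library set to the same nuclear total.

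The highest 256-cell means among risers with an established name belong to cirbpb, klf17, mxtx2 and hmga1a. cirbpb, a cold-inducible RNA-binding protein, had 71.6 and 69.1 scaled FPKM at the 128-cell stage, 123 and 122 at the 256-cell stage, and 57.3 and 47.2 in unlabelled RNA (log2 change 0.79 ± 0.13, limma adjusted p = 0.0369). hmga1a, a protein that bends DNA in chromatin, had 50.8 and 47.3, then 97.7 and 75.6, and 53.5 and 59.9 in unlabelled RNA (0.80 ± 0.14, limma adjusted p = 0.0457). With each library set to the same nuclear total these fitted changes became -0.079 and -0.063, against a median of -0.60 over all genes. cirbpb passed in 5 and hmga1a in 6 of 18 alternative fits. The variant histone gene h3f3a was the only call of 5 tested histone genes (20%, beside 3.22% over all tested IDs). It had 37.9 and 25, then 79.4 and 41.9, and 9.31 and 7.79 in unlabelled RNA (0.88 ± 0.15, limma adjusted p = 0.0411, passing in 6 of 18 alternatives). The near-identical h3f3d had 184 and 276, then 177 and 266 (-0.06 ± 0.15), and reads shared between such copies could not be told apart.

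Of 53 ribosomal protein genes 2 rose, a share of 3.77% beside 3.22% over all tested IDs, with a list median of 0.05. rpl7a had 1.91 and 1.19 scaled FPKM, then 4.20 and 3.22 (0.89 ± 0.15, limma adjusted p = 0.0376), and RPL21 had 2.99 and 2.53, then 6.03 and 7.04 (1.00 ± 0.18, limma adjusted p = 0.0491). They passed in 4 and 5 of 18 alternatives. None of the 13 protein genes of the mitochondrial genome passed in limma at an adjusted p under 0.05 or at an unadjusted p under 0.05, although all 13 changes were below 0 (median -0.52). For MT-ND1 the scaled FPKM were 8133 and 17908 at the 128-cell stage and 5294 and 11446 at the 256-cell stage (-0.63 ± 0.31, limma adjusted p = 0.476), with 131 and 140 in unlabelled RNA. The replicates of a stage differed by more than the stages. With each library set to the same nuclear total, 12 of the 13 were called lower, beside 1490 of 7758 tested IDs. The list median on that scaling was -1.39, against -0.60 over all tested IDs.

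**Figure D3:**
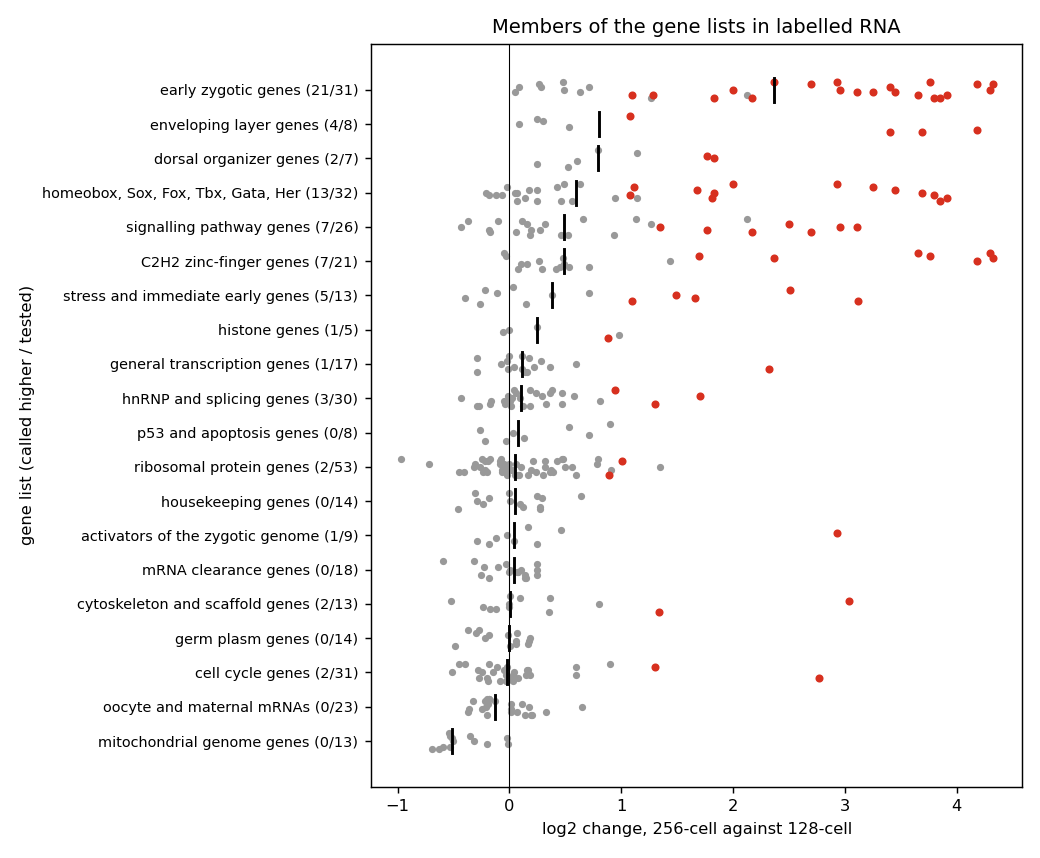
Log2 change of every tested member of 20 gene lists. Each point is a gene, red where it was called higher, and the black bar is the median of the list; the brackets give the number called higher of the number tested. Early zygotic genes have the most red points (21 of 31), the lists of oocyte and maternal mRNAs, germ plasm, mRNA clearance and housekeeping genes have none, and no list has a call below 0.

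IDs without a symbol made up 117 of the 235 risers. Of 1529 tested, 7.65% rose, against 118 of 5762 with a symbol (2.05%), a difference that was not tested. Median log2 changes of the risers were 3.68 and 1.69 in this order. Median 128-cell means of the risers were 10.3 scaled FPKM without and 0.417 with a symbol, and their 256-cell means 158 and 5.64. Without the block 40 IDs without and 45 with a symbol were called higher. Among risers without a symbol, 103 of 117 (88.0%) have an ID number of 80000 or more, against 619 (40.5%) of the tested IDs without a symbol. Of these 117 risers, 45 share identical values with other IDs in every labelled library, and the 117 hold 87 distinct profiles. The shares and medians above count every ID, so repeated values weigh more than once. The largest rise that passed the naming rule belonged to ENSDARG00000081623, listed at 0 in the 128-cell and unlabelled libraries, with 256 and 93.1 scaled FPKM at the 256-cell stage (log2 change 7.28 ± 0.35, limma adjusted p = 0.000672). Next was ENSDARG00000080493, at 22.1 and 0 before and at 637 and 66.9 after (5.44 ± 0.63, limma adjusted p = 0.00992), which was not called without the block (adjusted p = 0.426) or without either 256-cell library (adjusted p = 0.0847 in both).

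A group of 54 risers reached a 256-cell mean of 1000 scaled FPKM or more, of 121 tested IDs at that level. Over all tested IDs 3.22% rose. The cut is on the 256-cell mean, the higher side of a rise, so it favours risers and the count is a description. None of the 54 has a symbol and all have ID numbers of 80000 or more, whereas the highest 256-cell mean of a riser with a symbol was 126. Their median levels were 1722 and 1693 at the 128-cell stage and 11265 and 40458 at the 256-cell stage, with 125 and 168 in unlabelled RNA. Their log2 changes ran from 3.37 to 4.51. The 54 are not 54 separate measurements. Of them, 45 fall into 15 sets of IDs with identical values in every labelled library, which leaves 24 distinct profiles. Some of the 24 differ only at the 512-cell stage. Examples are the sets with 2141 and 949 scaled FPKM at the 128-cell stage and 11265 and 19205 at the 256-cell stage. The number of separate measurements of this comparison is therefore below 24. Over the whole comparison the same reduction leaves 205 distinct risers of 7227 distinct tested profiles, and the 205 is too high for the same reason. The largest set has 10 IDs, with 316 and 2717 scaled FPKM at the 128-cell stage and 3724 and 79314 at the 256-cell stage (log2 change 4.21 ± 0.42, limma adjusted p = 0.00521). In this set replicate 2 at the 128-cell stage lay close to replicate 1 at the 256-cell stage, while the rise within each replicate number was large. Replicate 2 was above replicate 1 in 48 of the 54 at the 256-cell stage. Of the 54, 1 was called without the block and 1 without either 256-cell library, while the median log2 change was 4.07 without the block, 4.26 without 256-cell replicate 1 and 3.82 without replicate 2.

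In labelled RNA, the share of deposited nuclear FPKM held by the risers was larger at the later stages. The 235 risers held 6.29% and 5.08% of the deposited nuclear FPKM in the 128-cell libraries, 43.8% and 56.5% in the 256-cell libraries, and 60.2% and 80.3% in the 512-cell libraries. In unlabelled RNA they held 0.381%, 0.270% and 0.775% at the 3 stages. The risers with a symbol held 0.0326% and 0.0119% at the 128-cell stage and 0.124% and 0.0232% at the 256-cell stage. IDs in identical sets made up 35.9% and 51.5% of the nuclear FPKM at the 256-cell stage. These may be the same reads counted under several IDs, so the shares describe the deposited table and not a share of molecules. The risers were chosen from the same libraries, so the shares are a description of their size and not a further test.

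**Figure D4:**
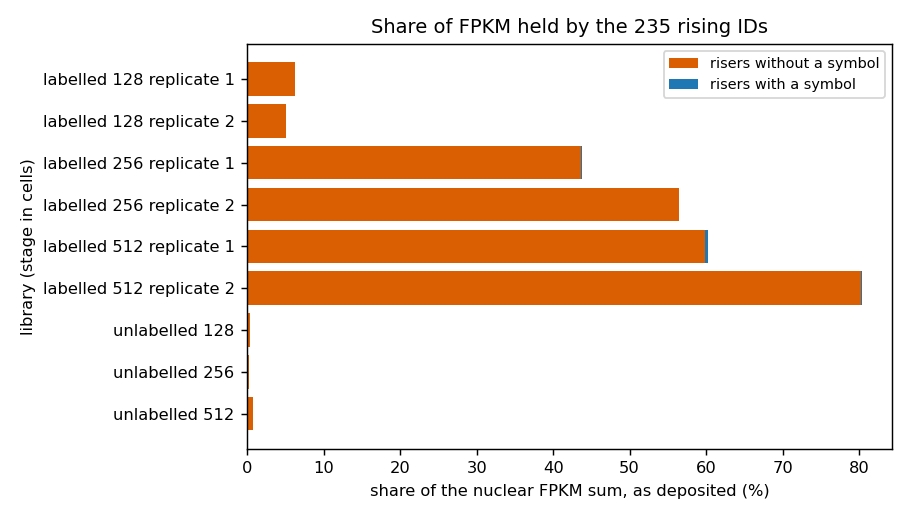
Share of the deposited nuclear FPKM sum (horizontal axis, in percent) held by the 235 rising IDs in each of the 9 libraries, split into IDs without a symbol (orange) and with a symbol (blue). The share goes from 6.29% and 5.08% at the 128-cell stage to 43.8% and 56.5% at the 256-cell stage, nearly all of it in IDs without a symbol, and stays under 1% in unlabelled RNA.

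The 7 falls had log2 changes from -1.88 to -0.82, and none belongs to a gene list. The named ones are pgam1a, a glycolytic phosphoglycerate mutase, and senp6b, a protease that trims SUMO chains. pgam1a had 6.16 and 4.72 scaled FPKM at the 128-cell stage and 2.43 and 2.27 at the 256-cell stage, with 2.02 and 3.73 in unlabelled RNA (log2 change -0.93 ± 0.15, limma adjusted p = 0.0338). senp6b had 2.11 and 2.07, then 0.621 and 0.514, with 2.28 and 2.02 in unlabelled RNA (-0.98 ± 0.16, limma adjusted p = 0.0350). The clone-named gene si:ch1073-75o15.3 had the largest fall, from 10.7 and 29.3 to 2.47 and 6.58 (-1.88 ± 0.14, limma adjusted p = 0.00208), and is named here after its values were seen. Among IDs without a symbol the larger falls were at ENSDARG00000095579 (-1.83 ± 0.30) and ENSDARG00000087491 (-0.92 ± 0.16). In all 7 both 256-cell libraries lay below both 128-cell libraries, an arrangement found in 917 (12.6%) of all tested IDs. No fall was called without the block, and leaving out any of the 4 compared libraries also ended the calls of pgam1a and senp6b.

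Unlabelled RNA served as the background of the capture. Of the risers, 84 (35.7%) had at least 1 scaled FPKM in the unlabelled 128-cell library and 81 (34.5%) in the unlabelled 256-cell library, against 82.5% and 80.7% of all tested IDs. Their median unlabelled log2 change was 0.04, with quartiles of -0.02 and 0.21, beside a median of 0.006 over all tested IDs. In 7 of the 235 the unlabelled log2 change was above 1, a share that was not computed for all tested IDs. ENSDARG00000086779 and ENSDARG00000088093 are among the 7, each with another ID of identical values. Identical IDs were counted separately in all counts of this paragraph. Also among the 7 is odf3l2a, which went from 1.11 to 4.06 in unlabelled RNA. Its labelled values went from 4.48 and 0.489 to 9.12 and 2.69. In 234 of the 235 both labelled 256-cell libraries were above the unlabelled 256-cell library, as in 2963 (40.6%) of all tested IDs. The risers were chosen for high labelled 256-cell values, so this count is a description.

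The difference between the labelled and the unlabelled change was tested in a fit of all 9 libraries. Of 7393 IDs tested it was called in 81 (1.1%, limma adjusted p under 0.05), with a larger change in labelled RNA at 76 (1.03%) and a smaller one at 5 (0.0676%). Each stage has 1 unlabelled library, whose spread is assumed to be that of the labelled technical replicates. The median of this difference was 2.45 on the log2 scale over the 235 risers, beside -0.0016 over all IDs in this fit. It was above 0 in 234 of the risers. The risers were chosen for a large labelled change, which is part of this difference, so their values here are a description. Identical IDs were counted separately in this fit. Some called differences rest on an unlabelled 256-cell value of 0. A set of 3 identical IDs went from 40.9 to 0 scaled FPKM in unlabelled RNA, with a difference of 8.82 against a labelled change of 3.59. A pair went from 43.4 to 0, with a difference of 9.05 against 3.74. Of the 12 largest named rises 11 passed, and grhl3 did not (adjusted p = 0.0632). For blf the difference was 3.92 ± 0.23 (limma adjusted p = 0.00893) and for mxtx2 the adjusted p was 0.0114. Early zygotic genes gave 12 calls of 31, and dorsal organizer genes gave 0 in limma. rpl7a, from 2.76 to 1.00 in unlabelled RNA, passed at an adjusted p of 0.0480. Without the block the difference was called in none in limma, with 223 larger and 50 smaller at an unadjusted p under 0.05. Leaving out single labelled libraries gave 31 to 229 calls, the lowest without 256-cell replicate 1 and the highest without 128-cell replicate 2, with 162 without 128-cell replicate 1.

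**Figure D5:**
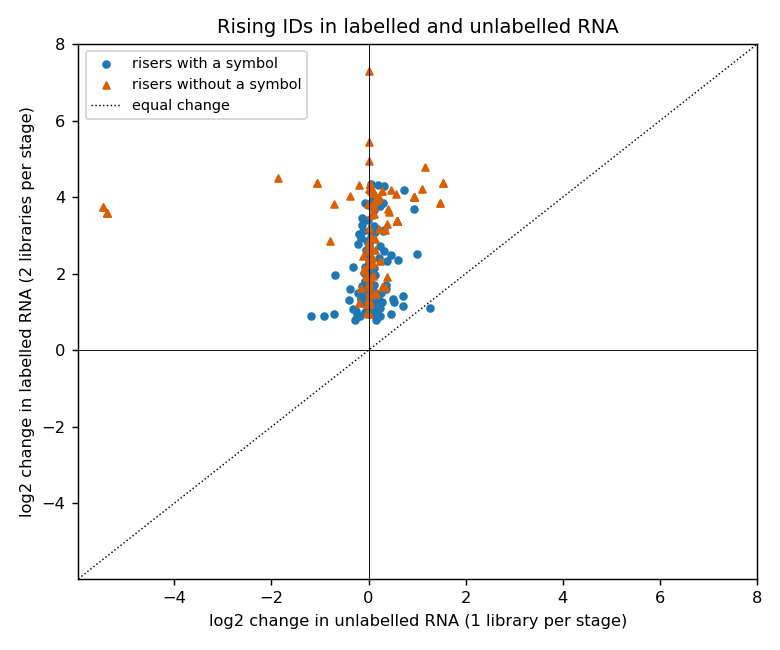
Log2 change from the 128-cell to the 256-cell stage in labelled RNA (vertical axis, 2 libraries per stage) against unlabelled RNA (horizontal axis, 1 library per stage) for the 235 rising IDs. Blue circles have a symbol, orange triangles have none, and the dotted line marks equal change. Most IDs lie in a column near 0 on the horizontal axis (median 0.04), and 1, odf3l2a, lies close to the dotted line.

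The authors' deposited table with 1 value per stage over the labelled libraries lists 232 of the 235 risers. From the 128-cell to the 256-cell value, their median log2 change in the authors' deposited table was 3.05, beside 0.55 over the tested IDs it lists, and all 232 were above that 0.55. The scaling between stages of that table is not stated. It rests on the same labelled samples, so it is a further view of them and not a separate test.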

How the data were processed

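Labelled RNA was measured by sequencing at 3 stages. Deposited values are FPKM per gene and library, made by the authors with CASAVA 1.7, TopHat 1.3.3 and Cufflinks 2.0.2 on Zv9, per the submitters' processing notes; annotation version, multiple matches, strand and filters are not given in the sources used here. The depth is unknown, so no counting interval is given. Symbols come from a reference name table by gene ID and keep its case.

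Libraries were scaled by median of ratios over 8563 nuclear genes above 0 in all 6 labelled libraries. IDs with at least 1 scaled FPKM in at least 2 of these were tested on log2(scaled FPKM + 1) with limma 3.58.1 in R 4.3.3 (moderated, with trend, two-sided), with stage and replicate number as terms, 2 residual degrees of freedom, and Benjamini-Hochberg adjustment over all tested IDs at 0.05. The scripts were tested on simulated data. Unlabelled values are on the labelled scale, by their median ratio to the mean of the labelled libraries. Same-numbered libraries deviated together (correlations 0.738, 0.742 and 0.667 between stages, over 7291 IDs), though what a shared number stands for is not stated.

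Named genes are the 12 largest rises, the largest falls (at most 8), the 2 largest rises and falls without a symbol, the 4 highest, and up to 4 members per list with the smallest adjusted p; others are examples. Except for list members and examples, named genes were called, with both replicates changed the same way and no overlap between the stages. Their mean in the higher stage was at least 1 scaled FPKM. The members and lists were chosen with earlier results of these data known. Scalings, pseudocounts, filters, the block and single libraries were varied.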

Additional observations from a re-analysis of the deposited data

Results flagged for a closer look

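The difference between the labelled and the unlabelled change from the 128-cell to the 256-cell stage was picked out because the change differed between the groups by a test of the difference itself. It was called in 81 of 7393 IDs (limma adjusted p under 0.05), 76 of them with the larger change in labelled RNA. Identical IDs were counted separately. With 1 unlabelled library per stage, the spread of unlabelled RNA was not measured.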

How the results depend on the processing

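Against 242 calls in the stage comparison, 85 IDs were called without the replicate block (366 higher and 72 lower at an unadjusted p under 0.05), 1776 with 1 nuclear total for all libraries and 137 with a pseudocount of 5. Leaving out single libraries gave 90 to 303. With values as deposited and no block, an alternative chosen after seeing the data, limma called 0, with 246 higher and 10 lower at an unadjusted p under 0.05. All 85 calls without the block are among the 242. The remaining alternatives gave 210 to 329, and 212 with identical IDs counted once, which was also chosen after seeing the data. Against 81 calls for the difference from unlabelled RNA, 0 were made without the block and 205 with values as deposited, and leaving out single libraries gave 31 to 229.

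The 87 named genes had 1531 alternative values, of which 1298 kept direction and side of the threshold, 200 lost the call, 31 gained one and 2 reversed: cirbpb (-0.079) and hmga1a (-0.063) with 1 nuclear total for all libraries, where all genes shift by -0.60. The replicate numbers come from the labels, which do not say what libraries of the same number share. Correlated deviations of same-numbered libraries were computed as a check of the block. With 2 libraries per stage and unknown depth, the precision of low values is not known, and technical replicates do not show how embryos vary.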

Other observations

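Further developmental genes outside the rule for named genes were among the risers, and they are listed after their values were seen. The Wnt ligand gene wnt11f2 went from 1.14 and 0.621 scaled FPKM to 22.4 and 10.1 (log2 change 3.11 ± 0.24, limma adjusted p = 0.00223). CXCR4, a chemokine receptor gene, went from 0.369 and 0.488 to 13.2 and 6.51 (2.85 ± 0.32), and NFE2, a basic leucine zipper factor of blood, from 1.78 and 0.788 to 15.8 and 7.20 (2.40 ± 0.15). noto, a notochord homeobox gene, and admp, a Bmp-family ligand of the organizer, reached 7.66 and 3.34 and 5.66 and 3.59, from under 0.5 in both 128-cell libraries. FGF20, an Fgf ligand, had 2.21 and 2.36 before and 7.55 and 10.6 after, and was at 0 in both unlabelled libraries. The caudal homeobox gene cdx4 and the proneural gene ascl1a were at the margin, with adjusted p-values of 0.0485 and 0.0498 in limma. The RNA helicase gene DDX5 and PNRC2, a cofactor of nonsense-mediated decay, rose from higher levels: DDX5 from 13.5 and 12 to 35.1 and 29.1, and PNRC2 from 19.3 and 14.5 to 52.3 and 36.0.

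The order of protein-coding genes was read by symbol from a RefSeq table of the assembly GRCz12tu, which is not the build of the files, so only neighbourhood was used. Placement by symbol was possible for 91 of the 235 risers, and IDs without a symbol had no position. Of 52 risers with a tested neighbour, 12 (23.1%) stood next to another riser, against 52 of 2185 (2.38%) genes that did not rise, a difference that was not tested. Each pair of risers was counted from both sides. Whether related neighbours such as drl and drll.1 share reads was not tested. The pairs are her5 and her11, drl and drll.1, BRD2 and hsd17b8, DOP1A and PNRC2, GPER1 and h3f3a, and si:rp71-45k5.2 and zgc:113424. Of 71 tested genes whose symbol starts with znf, a set chosen after its values were seen, 4 rose (5.63%, near the 3.22% over all tested IDs). A further 948 IDs are found in the authors' deposited table and not in the per-library one, and none of them has a log2 change more than 2 above the median of the tested IDs.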
